A study of Homo sapiens with 2 samples.

Results

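Polycomb repressive complex 2 (PRC2) was followed through 9 genes: EZH2, EZH1, SUZ12, EED, RBBP4, RBBP7, JARID2, PHF1 and MTF2. Probe sets were taken as members when the array platform's annotation gave them 1 of these symbols and no other, which selected 19 probe sets of 22215 that were not controls. All 9 genes were represented, among 8277 genes measured in all. A further probe set carried SUZ12 together with another symbol and was left out. The cells were L-540, an established Hodgkin lymphoma line commonly assigned to the T-cell lineage. One culture was treated with vorinostat, a hydroxamate inhibitor of histone deacetylases, and the other was left untreated, each under standard culture conditions and each hybridised to 1 Affymetrix HG_U133A array. The labels gave neither a dose nor a time for the treatment. With 1 array per group there was no replicate check, so differences are described without a test. The precision of every difference is limited by the 2 arrays.

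PRC2 places methyl groups on lysine residue K27 of histone H3, the mark H3K27me3 of silenced genes. The catalytic subunit is EZH2, abundant in dividing cells, or its paralog EZH1, which is typical of resting cells, and it works only together with SUZ12 and EED. RBBP4 and RBBP7 bind histones in this and several other complexes, whereas JARID2 and the Polycomb-like proteins PHF1 and MTF2 join the core in alternative assemblies and help to bring it to CpG-rich DNA. EZH2 is well known in lymphoid biology for its part in germinal centre B cells and in the lymphomas that arise from them.

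EZH2 had the highest ratio of the 9 genes and was 2.09-fold higher in the vorinostat array, JARID2 was 1.81-fold higher, and the other 7 genes lay within 1.27-fold in either direction, each gene being read on its brightest probe set. EZH1, the alternative catalytic subunit, was 1.26-fold lower. At least 2-fold higher was 1 of the 9 genes, against 3.77% of all 8277 measured genes, and at least 2-fold lower were 0 of 9, against 5.12% of all genes. At least 1.5-fold higher were 2 of 9, against 12.7% of all genes, and at least 1.5-fold lower 0 of 9, against 15.5%. No member reached 3-fold, which 0.544% of all genes did upward and 0.930% downward. Counts of 1 and 2 among 9 genes say little about the set beside these shares. The median log2 ratio of the 9 genes, vorinostat over untreated, was 0.27, beside -0.04 over all measured genes. It was -0.01 without probe sets that can share sequence, where EZH2, JARID2 and RBBP4 have no reading. A log2 ratio above 0 was found for 6 of the 9 genes, against 47.0% of all genes, and for 7 with the arrays scaled to equal medians and 5 after quantile normalization or loess.

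The sequences before the start sites of EZH2, JARID2 and EZH1 are shown because these genes had the 2 highest ratios and the lowest ratio of the set. Each is the 250 bases before the RefSeq start farthest upstream (build GRCh38.p14), written 5′ to 3′ on the gene's own strand, at chr7:148884292-148884541 on the minus strand for EZH2, chr6:15245819-15246068 on the plus strand for JARID2 and chr17:42745041-42745290 on the minus strand for EZH1. Capitals mark matches, on either strand, to the CCAAT box (CCAAT), the GC box (GGGCGG) or the E2F motif (TTTNNCGC).
EZH2: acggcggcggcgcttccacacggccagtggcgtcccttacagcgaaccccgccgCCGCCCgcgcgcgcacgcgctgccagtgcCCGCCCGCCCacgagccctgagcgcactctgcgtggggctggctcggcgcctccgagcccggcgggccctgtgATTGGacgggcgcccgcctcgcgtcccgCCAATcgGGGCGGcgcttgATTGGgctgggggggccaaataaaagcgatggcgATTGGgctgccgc
JARID2: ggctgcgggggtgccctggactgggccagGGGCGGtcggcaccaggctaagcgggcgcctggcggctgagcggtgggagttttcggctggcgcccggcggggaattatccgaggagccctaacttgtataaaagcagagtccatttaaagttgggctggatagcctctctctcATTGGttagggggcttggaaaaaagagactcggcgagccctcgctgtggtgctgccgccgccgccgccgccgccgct
EZH1: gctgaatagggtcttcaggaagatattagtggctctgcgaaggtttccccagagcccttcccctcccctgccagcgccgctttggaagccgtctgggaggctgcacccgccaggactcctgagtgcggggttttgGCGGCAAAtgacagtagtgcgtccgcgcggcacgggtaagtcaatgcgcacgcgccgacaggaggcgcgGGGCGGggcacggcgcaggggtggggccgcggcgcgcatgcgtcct

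Motifs were searched on both strands of windows reaching from 250 bases before to 50 bases after each start. RefSeq start windows matched all 9 genes, in 13 windows, because several genes had more than 1 start. The EZH2 window shown held 4 CCAAT matches, at positions -94, -66, -47 and -13 from the start, and 4 matches to the GC box, of which 2 overlap. Its second window held no CCAAT, no E2F match and 1 GC box. Of all 35116 windows in the table, 34.6% held at least 1 CCAAT and 0.991% held 4 or more. GC box matches were found in 45.0% of all windows, with 4 or more in 9.06%. The EZH2 window also had 1 E2F match starting 2 bases into the transcript, beyond the stretch shown, a motif found in 6.89% of all windows. JARID2 had 1 CCAAT, at -77, and 1 GC box, at -221, in the window shown and 6 GC boxes in its second window. EZH1 had no CCAAT, 1 GC box at -46 and 1 E2F match at -115. SUZ12 and MTF2 each had 1 E2F match, and so did the first of the 2 RBBP7 windows. The E2F motif thus occurred in 5 of the 13 member windows, each of a different gene, beside 6.89% of all windows. All windows are not a matched background, since the member windows were richer in CG than the median window. The 5 genes include both the lowest ratio of the set (EZH1) and the highest (EZH2), and a link between motif and ratio was not tested. In all 13 member windows CG dinucleotides numbered 16 to 54, above the median of 14 over all windows. These matches describe the letters of the windows and are neither binding sites nor causes.

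Signals are MAS5 values, a linear intensity per probe set, and a ratio is formed after setting signals under a floor of 68.9 units to that floor. Both arrays had a trimmed mean signal of 499.9 (2% removed at each end), and 58.8% of probe sets that were not controls lay above the floor in the vorinostat array and 61.2% in the untreated array. Hodgkin cell markers were measured for 6 of 8 genes, with 2 at least 2-fold lower in the vorinostat array and 4 within 2-fold. Of all measured genes 5.12% were at least 2-fold lower and 3.77% higher. TNFRSF8, which encodes CD30, had 3228 in the vorinostat and 10777 in the untreated array, and BATF3, an AP-1 family gene, had 1825 and 6200. FUT4 had 218 in the vorinostat and 335 in the untreated array, and IL2RA 2507 and 2966, whereas GATA3 (1565 and 1174) and IRF4 (14699 and 12032) were higher in the vorinostat array. CCL17 and CCL22 were under the floor on both. Of the T cell markers CD247 had 942 in the vorinostat and 4463 in the untreated array, CD3E was under the floor in the vorinostat array (47.4) and had 139 in the untreated array, CD4 had 812 and 926, and CD3D and CD8A were under the floor on both. PAX5, the 1 B cell marker measured, had 127 in the vorinostat and 313 in the untreated array. Summed over their genes, signals were 24082 in the vorinostat and 33544 in the untreated array for Hodgkin markers, 211 and 423 for B cell markers (1 of 4 genes with a probe set measured), 1903 and 5588 for T cell markers (3 of 5), 322 and 477 for monocyte markers (3 of 5), and 502 and 501 for fibroblast markers (3 of 5). The sums take signals as deposited, without the floor, and include genes under the floor on both arrays. The lower sums for Hodgkin and T cell markers in the vorinostat array rest mainly on TNFRSF8, BATF3 and CD247. The part of these markers in the results below was not tested. Of 4 genes listed as responders to histone deacetylase inhibitors, DHRS2 (9644 in the vorinostat and 3013 in the untreated array) and SAT1 (1539 and 534) were at least 2-fold higher, and CDKN1A (3505 and 2267) and TXNIP (124 and 120) lay within 2-fold. In bulk RNA, fewer cells of a kind and less RNA per cell cannot be told apart.

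Of the catalytic subunits, EZH2 was read by 1 probe set, with a signal of 1735 in the vorinostat array and 831 in the untreated array, a log2 ratio of 1.06. Among all 8277 measured genes, 2.92% had a larger ratio and 7.47% lay farther from 0 in either direction. EZH2 belonged to the third of genes with the highest signals, in which 3.77% passed 2-fold upward and 3.04% downward. The suffix of its probe set, _s_at, marks probes that can be shared between transcripts, and no second EZH2 probe set was there to set beside it.

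EZH1 was read by 3 probe sets. The brightest had signals of 646 in the vorinostat and 810 in the untreated array (log2 ratio -0.33), and the second had 515 and 556 in the vorinostat and untreated array (-0.11). The third had 35.7 in the vorinostat array, under the floor, and 85.5 in the untreated array, which makes it at least 1.24-fold lower. All 3 EZH1 probe sets thus had lower signals in the vorinostat array, the opposite of EZH2, but by little: 52.7% of all genes lay farther from 0 than EZH1. The log2 ratio of EZH2 exceeded that of EZH1 by 1.39, so that the balance of the 2 readings was 2.62-fold different between the arrays. Levels of the paralogs were not compared with each other within an array, since they come from different probes.

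**Figure D1:**
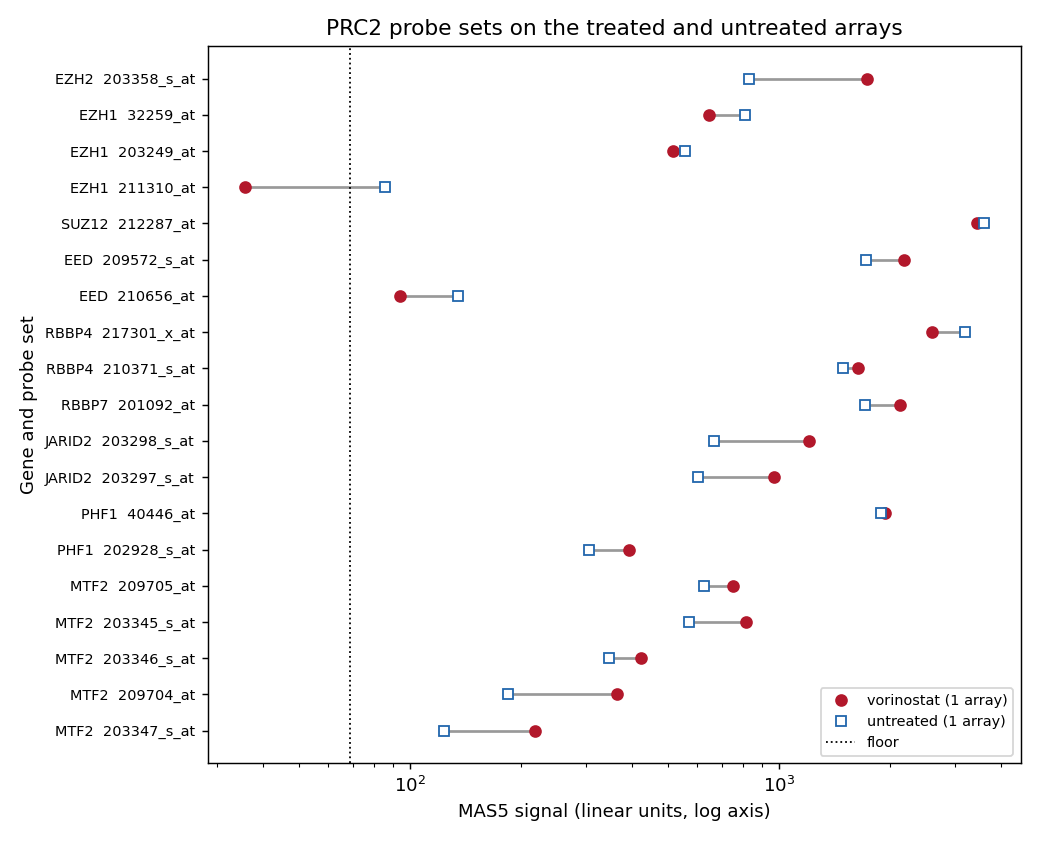
MAS5 signal (linear units on a log axis) of each of the 19 PRC2 probe sets, with the vorinostat array as filled circles and the untreated array as open squares, 1 array each, and the floor of 68.9 as a dotted line. EZH2 and both JARID2 probe sets lie clearly to the right in the vorinostat array, all 5 MTF2 probe sets lie to the right by differing amounts, and the 3 EZH1 probe sets lie to the left.

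The other core subunits, SUZ12 and EED, stayed near the level of the untreated array on their brightest probe sets. SUZ12, the scaffold that holds the catalytic subunit in the complex, had signals of 3449 in the vorinostat and 3586 in the untreated array, a log2 ratio of -0.06 (0.07 with equal medians). EED, which binds the methyl mark and activates the enzyme, had 2179 and 1722 in the vorinostat and untreated array, a log2 ratio of 0.34. Its second, dimmer probe set went the other way, with 94.0 in the vorinostat and 135 in the untreated array (-0.52). The EED direction therefore depends on which of its 2 probe sets is read. The log2 ratio of EZH2 lay 1.12 above that of SUZ12 and 0.72 above that of EED, the partners it needs for activity.

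The histone-binding subunits moved little and in opposite directions on their brightest probe sets. RBBP7 had signals of 2128 in the vorinostat and 1709 in the untreated array, a log2 ratio of 0.32, on its single probe set. RBBP4 had 2598 and 3201 in the vorinostat and untreated array (-0.30) on a probe set whose suffix, _x_at, marks probes that can match other genes. On its other probe set RBBP4 had 1637 in the vorinostat and 1494 in the untreated array (0.13). Without the _x_at probe set, RBBP4 and RBBP7 both had ratios above 0.

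Of the accessory subunits JARID2 had the highest ratio on brightest probe sets. JARID2, a Jumonji-family protein without demethylase activity that helps to recruit PRC2, had signals of 1208 in the vorinostat and 666 in the untreated array (log2 ratio 0.86) on the brighter of its probe sets. The dimmer one had 972 and 602 in the vorinostat and untreated array (0.69). Both readings were higher in the vorinostat array and differed from each other by 0.17, and 5.76% of all genes had a larger ratio than JARID2. Both probe sets carry the _s_at suffix.

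MTF2, a Polycomb-like protein that binds unmethylated CpG-rich DNA, was read by 5 probe sets, all with higher signals in the vorinostat array. The brightest had 753 in the vorinostat and 626 in the untreated array, a log2 ratio of 0.27. The next had 814 and 571 in the vorinostat and untreated array (0.51), and the third 422 and 346 (0.29). The 2 dimmest gave the largest ratios, 365 in the vorinostat against 185 in the untreated array (0.98) and 219 against 123 (0.82). The 5 readings of MTF2 therefore shared a direction but spanned 1.20-fold to 1.97-fold, with a median log2 ratio of 0.51. Of the 65 genes with 5 or more probe sets above the floor on both arrays, 8 (12.3%) had all of them higher.

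PHF1, the other Polycomb-like protein, had signals of 1940 in the vorinostat and 1891 in the untreated array (log2 ratio 0.04, and -0.01 after loess) on its brightest probe set, and 393 and 307 in the vorinostat and untreated array (0.36) on its second. The log2 ratio of JARID2 exceeded that of PHF1 by 0.82 and that of MTF2 by 0.59 on brightest probe sets. The alternative accessory subunits AEBP2, PHF19, EPOP, LCOR, LCORL and EZHIP had no probe set with 1 symbol and were not analysed here.

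Probe sets of 1 gene on the same pair of arrays give a scale for these differences, which is not replicate error. Over 2428 genes with at least 2 probe sets above the floor on both arrays, the log2 ratios of the 2 brightest differed by a median of 0.25, and by 0.67 at the 90th percentile. On brightest probe sets the log2 ratios of EZH2 (1.06) and JARID2 (0.86) were larger than 0.67, and those of the other 7 genes were smaller. The 2 dimmest MTF2 probe sets, at 0.98 and 0.82, were larger too. Variation between cultures is not part of this scale, so it cannot show which ratios exceed such variation. Among the 2428 genes all probe sets were higher in 34.2% and all lower in 38.2%. Over all 19 member probe sets, 13 were higher in the vorinostat array and 6 lower, beside 46.1% higher among 14194 measured probe sets. Probe sets of 1 gene are not independent readings: MTF2 alone gave 5 of the 13, and JARID2 and PHF1 gave 2 each. This count therefore says little about the set, and by gene 6 of 9 had a ratio above 0.

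**Figure D2:**
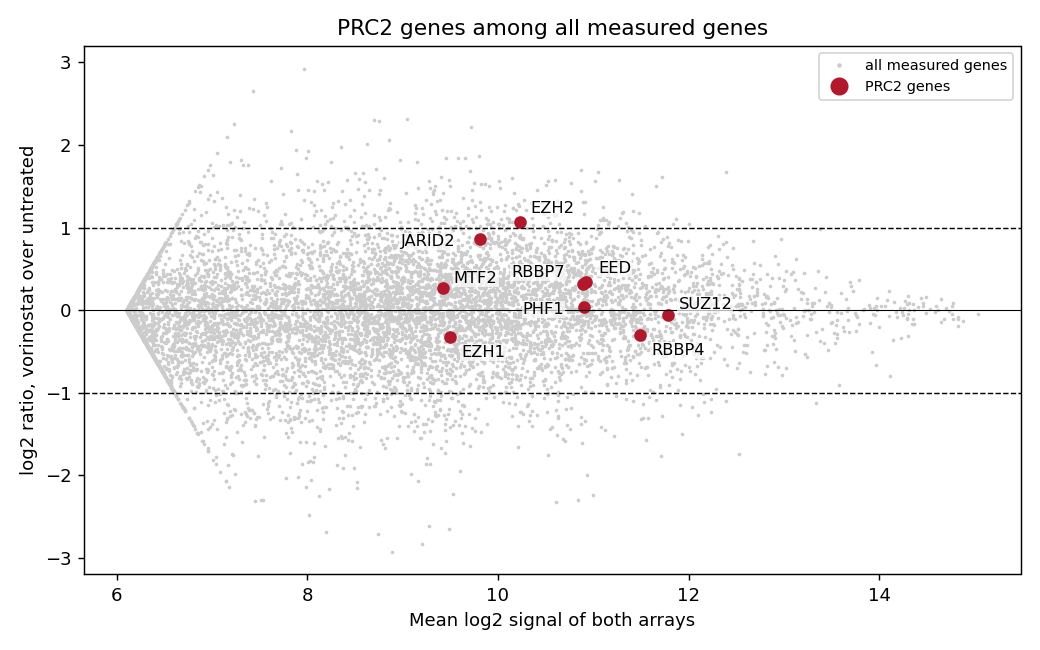
Log2 ratio of vorinostat over untreated against the mean log2 signal of both arrays for all 8277 measured genes (grey points) and the 9 PRC2 genes (red, labelled), with dashed lines at 2-fold. EZH2 lies just above the upper line and JARID2 just below it, while the other 7 lie between -0.33 and 0.34 within the bulk of genes of similar signal.

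PRC1, the partner complex, reads the PRC2 mark through its CBX subunits and ubiquitinates histone H2A. Of 21 genes listed, 13 were measured. At least 2-fold higher was 1 of the 13 and lower were 0, against 3.77% and 5.12% of all genes, and 12 lay within 2-fold. CBX7, a reader of H3K27me3, was the higher one, with signals of 349 in the vorinostat and 131 in the untreated array (2.66-fold, but a log2 ratio of 0.61 with the floor at the 60th percentile). SCMH1 (1.62-fold), PCGF3 (1.51-fold) and SCML2 (1.42-fold), further Polycomb group genes, were lower but within 2-fold. RING1, a ubiquitin ligase subunit, had signals of 936 in the vorinostat and 771 in the untreated array. The median log2 ratio of PRC1 genes was -0.39, below that of all genes, where the PRC2 median was above it. Without probe sets that can share sequence the medians were close, at -0.05 for PRC1 and -0.01 for PRC2 beside -0.02 for all genes. BMI1 and RNF2 were not analysed here, having no probe set with 1 symbol.

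Genes whose products remove H3K27 methylation or oppose Polycomb were also read, and 11 were measured. At least 2-fold higher were 0 of the 11 and lower 3, against 3.77% and 5.12% of all genes. The other 8 lay within 2-fold. The median log2 ratio of the 11 genes was -0.37, beside -0.04 over all genes. CREBBP, which acetylates the residue that PRC2 methylates, had 211 in the vorinostat and 522 in the untreated array (2.47-fold lower). NSD2 and NSD1, which methylate lysine K36 of histone H3, a mark that hinders PRC2, were 2.42-fold and 2.38-fold lower, and NSD1 was at a log2 ratio of -0.09 with the higher floor. All 3 NSD2 probe sets were lower, with log2 ratios between -1.27 and -1.09. ASXL1, a partner of the deubiquitinase that reverses the PRC1 mark, was 1.94-fold lower (a log2 ratio of -1.01 after loess). Its other probe sets had log2 ratios of -1.63 and -0.89. The H3K27 demethylase genes had log2 ratios of -0.12 (KDM6A) and -0.37 (KDM6B) on their brightest probe sets. Their dimmer probe sets had -0.57 and -0.38 for KDM6A and -0.37 and -0.18 for KDM6B.

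RBBP4 and RBBP7 also serve the NuRD and SIN3 deacetylase complexes, the CAF-1 chaperone, NURF, the DREAM complex and the acetyltransferase HAT1. None of 16 measured genes of these complexes passed 2-fold (median log2 ratio -0.06), which 3.77% of all genes did upward and 5.12% downward. CHD3, a NuRD remodeller, was 1.65-fold lower, HAT1 1.49-fold higher, and MBD2 and BPTF 1.43-fold lower each. HDAC1 and HDAC2, targets of vorinostat, had log2 ratios of -0.09 and 0.49. CHD3 passed 2-fold on its second probe set, at a log2 ratio of -1.31.

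**Figure D3:**
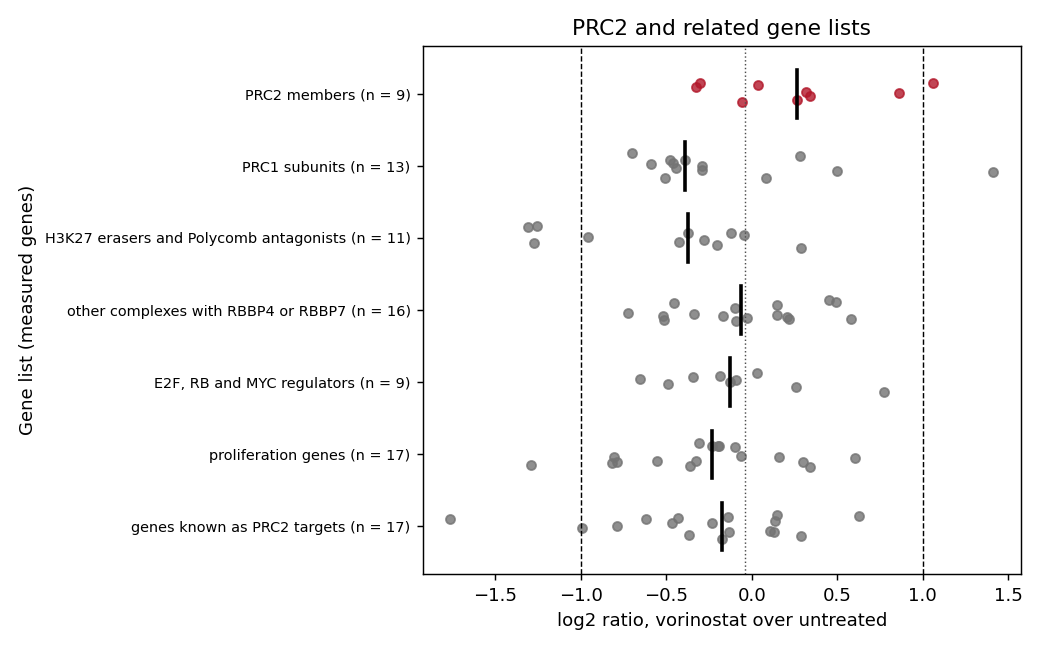
Log2 ratio of vorinostat over untreated for each measured gene of PRC2 (red, 9 genes) and of 6 related gene lists (grey), 1 point per gene, with a black bar at each list's median, dashed lines at 2-fold and a dotted line at the median of all genes (-0.04). The PRC2 median of 0.27 is the only one of the 7 above the dotted line. Without probe sets that can share sequence the PRC2 median was -0.01, beside -0.02 for all genes. The lists were chosen with earlier results of these data known.

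EZH2 and EED are known targets of the E2F factors, which RB1 restrains. None of 9 measured E2F, RB and MYC genes passed 2-fold (median log2 ratio -0.13), beside 3.77% of all genes upward and 5.12% downward. E2F1 had 237 in the vorinostat and 373 in the untreated array (1.57-fold lower) and RB1 277 and 162 in the vorinostat and untreated array (1.71-fold higher). RBL2 was 1.40-fold lower, though a second RBL2 probe set had a log2 ratio of 0.08, and TFDP1 was 1.27-fold lower, with a second probe set at -0.87. MYC had a log2 ratio of -0.09. EZH2 was higher while E2F1 was lower on these arrays, and the other measured E2F genes had log2 ratios between -0.13 and 0.26. The activity of E2F factors was not measured, and a link to the EZH2 difference was not tested.

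Proliferation genes, with which EZH2 commonly varies, had 0 of 17 measured genes at least 2-fold higher and 1 lower, against 3.77% and 5.12% of all genes. The lower one was MCM5, a replication helicase subunit with 1200 in the vorinostat and 2939 in the untreated array. MCM7 (1.76-fold), MKI67 (1.75-fold) and TYMS (1.73-fold) were lower as well, within 2-fold. The highest log2 ratio of the 17 genes was 0.60, below that of EZH2, and 13 of the 17 lay below 0 (11 with equal medians), with a median of -0.23.

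Of 38 genes known as PRC2 targets in other cells, 30 had a probe set with 1 symbol and 17 were measured. Of these 0 were at least 2-fold higher, 1 lower and 16 within 2-fold (median log2 ratio -0.18), against 3.77% higher and 5.12% lower over all genes. Most of the 17 had signals less than 2-fold above the floor of 68.9 on both arrays. With that floor they could not reach 2-fold in either direction, so the count within 2-fold does not show that they were unchanged. PRDM1, a regulator of plasma cell differentiation that EZH2 silences in germinal centre B cells, had 801 in the vorinostat and 2712 in the untreated array (3.39-fold lower). HOXC10 was 1.99-fold lower and RUNX3 1.72-fold lower. CDKN1A, encoding the CDK inhibitor p21, had 3505 in the vorinostat and 2267 in the untreated array, 1.55-fold higher. CDKN2A, a classic Polycomb target, was under the floor in the vorinostat array, at 34.1, and had 95.0 in the untreated array, at least 1.38-fold lower (past 2-fold with either lower floor and with the offset in place of the floor). The other 13 genes with a probe set lay under the floor on both arrays, so that a difference in them could not be seen. H3K27 methylation itself was not measured.

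**Figure D4:**
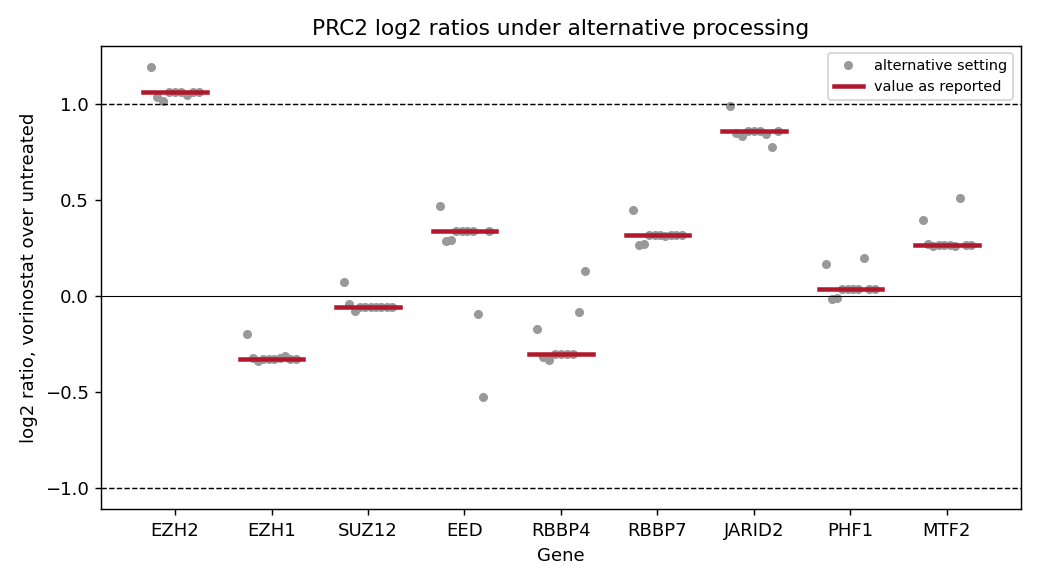
Log2 ratio of vorinostat over untreated for each PRC2 gene as reported (red bars) and under up to 10 alternative settings of scaling, floor and probe set choice (grey points), with dashed lines at 2-fold. EZH2 stays above 2-fold in the 9 settings that measure it and JARID2 stays between 0.77 and 0.99, whereas EED, RBBP4, SUZ12 and PHF1 have points on both sides of 0.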

How the data were processed

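Total RNA from 1 vorinostat-treated and 1 untreated L-540 culture was labelled with biotin and hybridised to 1 array each, per the labels' protocols. The authors deposited intensity values per probe set on a linear scale, and the submitters' processing notes name MAS5; its version and detection calls are not given in the sources used here. No rescaling was applied. Of 22283 probe sets, 68 were controls and 19065 carried 1 symbol in the platform annotation; symbols were updated through a RefSeq table (GRCh38.p14), which changed 0. Signals were floored at the 40th percentile of the values that were not controls, both arrays pooled. A probe set under it on both arrays was not measured, and under it on 1 array gave a bound. Each gene was read from its brightest probe set by mean log2 signal, calculated from the deposited intensity values. With 1 array per group, a difference of 2-fold or more was counted by size alone. All members are named, with at most 4 genes per list by size of log2 ratio and 13 fixed genes where measured. IRF4, IL2RA, CCL17, CCL22, CD3D, CD8A and the accessory subunits without a probe set fall outside this rule and are named to complete their lists; monocyte and fibroblast markers are given as sums. Members and lists were chosen with earlier results of these data known. Steps were run in Python 3.11.15 with pandas 2.3.3 and tested on simulated data.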

Additional observations from a re-analysis of the deposited data

How the results depend on the processing

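The count of 1 PRC2 gene at least 2-fold higher, and of 0 lower, held under equal medians, quantile normalization, loess, each other floor, the offset of 16, the median over probe sets and the removal of _x_at probe sets. Without _s_at and _x_at probe sets EZH2, JARID2 and RBBP4 had no reading, which left 0 genes higher and a median log2 ratio of -0.0097. At 1.5-fold the count higher was 2 and at 3-fold it was 0. EZH2 had log2 ratios of 1.02 to 1.19 in the 9 settings that measured it, and JARID2 0.77 to 0.99. EED was at -0.09 for the median over its probe sets and at -0.52 without _s_at probe sets, and RBBP4 at 0.13 without _x_at probe sets. SUZ12 was at 0.07 with equal medians, a scaling that moved the median of all genes by 0.12; PHF1 was at -0.01 after loess and after quantile normalization. With a floor set at the 60th percentile CBX7 was at 0.61 and NSD1 at -0.09, both short of 2-fold, while CDKN2A passed it at the 25th percentile floor (-1.48), the poly-A control floor (-1.14) and the offset (-1.15). PAX5 was at -0.45 with the higher floor and at -0.70 for the median over probe sets, and CD3E at -0.94, -0.94 and -0.92 with equal medians, quantile normalization and loess. RBL2 was at -0.21 and TFDP1 at -0.61 for the median over probe sets, and the PRC1 median was -0.05 without _s_at and _x_at probe sets. No gene named as 2-fold apart changed sign under any of these settings. No paired analysis was possible because each group held 1 array. Precision is limited by the 2 arrays, and dim genes give bounds only.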
